A study of Mus musculus with 4 samples.

Results

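Absorption of digested milk protein ends with transporters that move peptides and amino acids from the lumen into the enterocyte and from the enterocyte into the blood. The 9 genes described here encode such transporters, and they were taken as a fixed list by symbol from the feature lists, which name 32227 genes. All 9 were present in every library and all 9 passed the filter on low counts. Slc15a1, Slc6a19, Slc7a9, Slc3a1 and Slc1a1 act at the apical membrane, and Slc7a7, Slc3a2, Slc7a8 and Slc38a3 at the basolateral membrane. This division is textbook knowledge about the proteins and was not measured here.

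At the brush border, Slc15a1 (PepT1) carries dipeptides and tripeptides together with protons. Slc6a19 (B0AT1) carries neutral amino acids with sodium. Slc7a9 is the light chain that carries cystine and cationic amino acids, and it reaches the membrane with its heavy chain Slc3a1. Slc1a1 (EAAT3) carries glutamate and aspartate. On the blood side, the light chains Slc7a7 (y+LAT1, cationic amino acids) and Slc7a8 (LAT2, neutral amino acids) share the heavy chain Slc3a2 (4F2hc). Slc38a3 (SNAT3) carries glutamine, asparagine and histidine and is best known from liver, kidney and brain.

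Epithelium from a 2 cm piece of jejunum and a 2 cm piece of ileum of each of 2 wild-type (WT) mice at postnatal day 6 was profiled by single-cell RNA sequencing, giving 4 libraries, 2 per region. Replicate 1 of each region came from the mouse labelled male in batch 1 and replicate 2 from the mouse labelled female in batch 2, so mouse, labelled sex and batch cannot be told apart. No treatment or allele distinguished the groups, and region was the comparison. The epithelium was released with EDTA and dissociated with dispase.

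The libraries held 36202 called cells, of which 30522 were kept. Median depth per kept cell was 12048 and 10916 UMIs (distinct RNA molecules) for ileum and 4690 and 5884 for jejunum, and the median mitochondrial share was 3.61% and 3.74% against 6.37% and 9.94%, so both went with region in each mouse. Levels are given as CPM, the UMIs of a gene in the summed cells scaled to a common total. The sex labels were checked with an X-linked and a Y-linked gene, and both went against them. Replicate 1 of ileum and jejunum, labelled male, had Xist at 575 and 466 CPM and Eif2s3y at 0.0115 and 0.119 CPM, whereas replicate 2, labelled female, had Xist at 0.705 and 0.906 CPM and Eif2s3y at 88.1 and 67.0 CPM. No comparison below rests on sex. Among called cells, 1 barcode was shared between ileum replicate 2 and jejunum replicate 2 and 1 between the jejunal libraries, and no kept cells shared one.

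Clusters were named from markers. Of the kept cells, 28119 were enterocyte-like, 2072 stem/progenitor-like, 258 enteroendocrine-like, 53 immune-like and 20 goblet-like. All 14 enterocyte markers were present in the enterocyte-like cells of every library. Their summed level there was 21200 and 25747 CPM in the ileum and 51880 and 52851 CPM in the jejunum. In stem/progenitor-like cells it was 5036 and 5530 CPM in the ileum and 9435 and 10374 CPM in the jejunum, so in both classes the sum differed between the regions. The 11 immune markers summed to 5.90 and 5.03 CPM in ileal and 21.7 and 28.1 CPM in jejunal enterocyte-like cells, with at most 1 of them at 0 in a library, beside 2364 to 10138 CPM in immune-like cells. The part of immune RNA in the regional differences was not tested. Since levels are shares of all RNA of a class, fewer RNA molecules of a gene and more of others cannot be told apart.

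In enterocyte-like cells, 4 of the 9 transporters differed between the regions (edgeR quasi-likelihood test over libraries, Benjamini-Hochberg adjusted p under 0.05). Slc1a1, Slc38a3 and Slc3a1 were higher in the ileum and Slc15a1 was higher in the jejunum. Over all genes tested, 6.98% were called in either direction, of which 4.05% favoured the ileum and 2.93% the jejunum. Both membranes were represented, with 3 of the 5 apical genes and 1 of the 4 basolateral genes called. The median log2 fold change of the apical genes was 0.59 and that of the basolateral genes -0.33, beside -0.011 over all genes tested. Scaling to library totals alone, in place of TMM factors, moved the median log2 fold change of all genes by 0.11 towards the ileum and the share of called genes higher in the ileum from 58.0% to 68.0%.

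The peptide transporter Slc15a1 stood at 28.3 and 37.1 CPM in ileum replicates 1 and 2 and at 71.6 and 75.8 CPM in jejunum replicates 1 and 2. Both jejunal libraries lay above both ileal libraries. The fold change was 2.42 in favour of the jejunum (log2 fold change -1.28 ± 0.20 SE, adjusted p = 0.0289 by edgeR). The call was lost without ileum replicate 1 (adjusted p = 0.093) and with no filter on low counts (adjusted p = 0.0593).

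The neutral amino acid transporter Slc6a19 did not separate the regions. It was measured at 273 and 349 CPM in the ileum and at 226 and 277 CPM in the jejunum, so that the ranges overlapped, although the ileum was above the jejunum within each mouse. The log2 fold change was 0.20 ± 0.21 SE (adjusted p = 0.573 by edgeR). Without ileum replicate 2 it was -0.044.

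The cystine and cationic amino acid pair Slc7a9 and Slc3a1 leaned to the ileum in both mice. Slc7a9 was measured at 656 and 710 CPM in the ileum and 421 and 420 CPM in the jejunum. Its regions did not overlap, but it missed the threshold, with a log2 fold change of 0.59 ± 0.15 SE (adjusted p = 0.0708 by edgeR). With the mouse as a replicate block, which both regions of each mouse allow, it passed (adjusted p = 0.0315), and it also passed with DESeq2 (adjusted p = 0.00507) and when scaled to library totals alone (adjusted p = 0.0343). These settings also called more of all genes than the 6.98% above. The block called 15.2%, DESeq2 3109 and library totals alone 1884 of 19770. Slc3a1 was at 184 and 188 CPM in the ileum against 92.5 and 88.4 CPM in the jejunum, with no overlap. Its fold change was 1.91 (log2 fold change 0.93 ± 0.13 SE, adjusted p = 0.0250 by edgeR). The call for Slc3a1 was lost without ileum replicate 1, without ileum replicate 2 and without jejunum replicate 2 (adjusted p of 0.0846, 0.0759 and 0.0539), while its log2 fold change stayed between 0.87 and 1.00 when any library was left out.

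The acidic amino acid transporter Slc1a1 had the lowest adjusted p of the 9. It was measured at 20.4 and 18.7 CPM in the ileum (1703 and 1711 UMIs) and at 3.24 and 3.29 CPM in the jejunum (178 and 139 UMIs). The libraries of a region agreed closely and the regions did not overlap. The fold change was 5.55 in favour of the ileum (log2 fold change 2.47 ± 0.16 SE, adjusted p = 0.0146 by edgeR), and it was called under each of the 17 other settings and left-out libraries, with log2 fold changes of 2.44 to 2.62.

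Among the basolateral genes, the light chain Slc7a7 was measured at 173 and 194 CPM in the ileum and at 260 and 323 CPM in the jejunum. The regions did not overlap, and the log2 fold change was -0.78 ± 0.19 SE (adjusted p = 0.0672 by edgeR), short of the threshold. With the mouse as a replicate block it passed (adjusted p = 0.0154), as it did with DESeq2 (adjusted p = 0.00281). The block called 15.2% of all genes tested and DESeq2 3109 of 19770, more than the 6.98% above. The log2 fold change of Slc7a7 was -0.95 to -0.56 when a library was left out.

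Slc7a8, the other light chain, was at 147 and 201 CPM in the ileum against 236 and 219 CPM in the jejunum, with a log2 fold change of -0.49 ± 0.21 SE (adjusted p = 0.188 by edgeR). The regions did not overlap, but ileum replicate 2 lay close to the jejunal libraries. The shared heavy chain Slc3a2 was at 298 and 309 CPM in the ileum against 330 and 302 CPM in the jejunum. Its regions overlapped and the log2 fold change was -0.17 ± 0.14 SE (adjusted p = 0.455 by edgeR).

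Slc38a3 had the largest fold change of the 9. It was measured at 66.3 and 51.4 CPM in the ileum (5529 and 4705 UMIs) and at 8.38 and 2.74 CPM in the jejunum (461 and 116 UMIs). The regions did not overlap, while the 2 jejunal libraries differed from each other more than the ileal ones. The fold change was 9.81 in favour of the ileum (log2 fold change 3.29 ± 0.50 SE, adjusted p = 0.0278 by edgeR). The log2 fold change was 4.28 without jejunum replicate 1 and 2.75 without jejunum replicate 2, and the call was lost without either ileal library (adjusted p of 0.0953 and 0.0709) and with no filter on low counts (adjusted p = 0.0516).

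**Figure D1:**
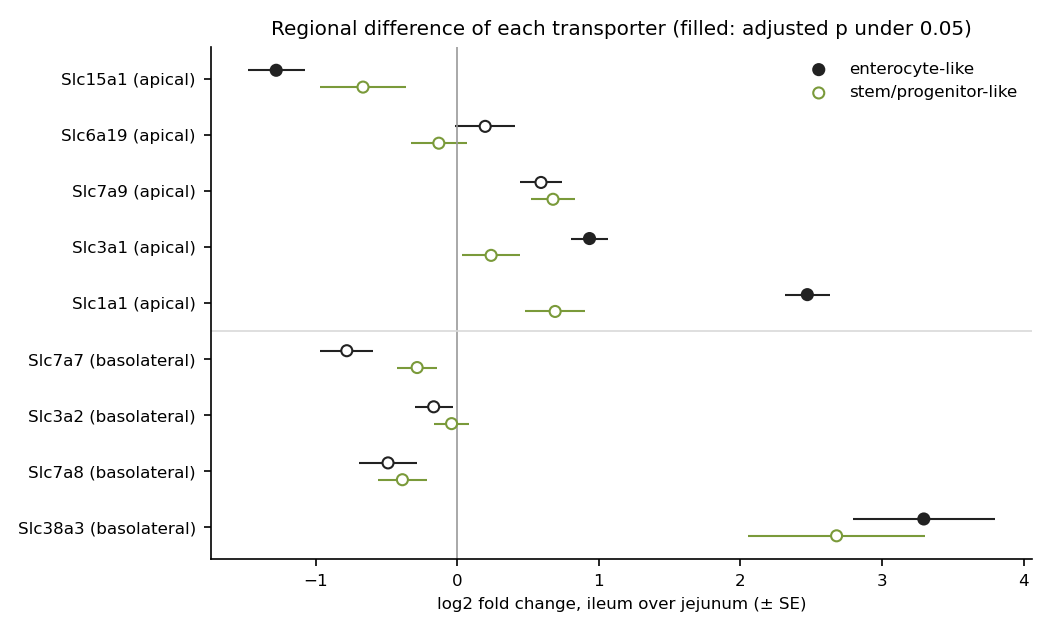
Log2 fold change of each transporter, ileum over jejunum, in enterocyte-like (black) and stem/progenitor-like (green) cells. Bars are SE from edgeR and filled points have an adjusted p under 0.05. Slc1a1 (2.47), Slc38a3 (3.29) and Slc3a1 (0.93) lie to the right and Slc15a1 (-1.28) to the left in enterocyte-like cells, and no point is filled in stem/progenitor-like cells.

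Over all kept cells together, which needs no cluster names, 5 of the 9 were called against 7.49% of all genes tested. They were the same 4 and Slc7a9 (log2 fold change 0.70 ± 0.14 SE, adjusted p = 0.0460 by edgeR). Slc7a7 passed only with the replicate block (adjusted p = 0.0244), which called 13.3% of all genes tested, and with DESeq2 (adjusted p = 0.00778), which called 3171 of 20368. The Slc7a9 call was lost when any of the 4 libraries was left out (adjusted p of 0.0691 to 0.177), with no filter on low counts (0.0868) and when cells were held to a mitochondrial share under 10% (0.0577).

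Since the ileal libraries were deeper, each kept cell was also thinned to 2000 UMIs, and shallower cells were left out. The levels then count UMIs per 100 enterocyte-like cells. Slc7a9 gave 122 and 131 UMIs in the ileum against 74.4 and 73.1 in the jejunum, and Slc3a1 gave 32.2 and 33.2 against 14.4 and 14.3. Slc1a1 gave 4.43 and 3.94 against 0.707 and 0.769, and Slc38a3 gave 11.6 and 9.97 against 2.04 and 0.587. Each of these 4 kept the ileum above the jejunum at equal depth.

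Slc15a1 gave 5.66 and 8.14 UMIs per 100 cells in the ileum against 13 and 13 in the jejunum, and Slc7a7 gave 33.6 and 36.9 against 48.2 and 60.7, so that the jejunum stayed above. Slc6a19 gave 51.1 and 69.6 against 41.3 and 47.1, without overlap at this depth but with overlap under 10% mitochondrial counts. Slc3a2 (56.1 and 58.8 against 59.5 and 51.6) and Slc7a8 (27.3 and 38.8 against 44.2 and 38.8) overlapped. Thus 7 of 9 did not overlap between the regions, 5 with the ileum above and 2 with the jejunum above. Of the 8205 genes at or above 2.38 UMIs per 100 cells, 70.7% did not overlap, 53.8% with the ileum above and 16.9% with the jejunum above, so that the count is close to the background and the ileum above is the common order.

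The transporters differed in how far they were restricted to enterocyte-like cells. Classes were made from the same cells, so levels between classes are a description with no test. The 14 enterocyte markers give a scale, and over the libraries they stood in stem/progenitor-like cells at a median of 10.4% to 80.3% of their enterocyte-like level, with 18.5% for the middle marker. RNA carried over between cells and low expression in stem/progenitor-like cells cannot be told apart at such levels. In stem/progenitor-like cells Slc15a1 stood at 13.5% to 23.5% of the enterocyte-like level of the same library, Slc6a19 at 13.3% to 20.7%, Slc7a9 at 18.8% to 21.1%, Slc3a1 at 14.1% to 28.6% and Slc38a3 at 7.54% to 19.6%. Their medians over the libraries were 9.53% to 22.1%, near or below that of the middle marker.

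The other 3 basolateral genes were less restricted. Slc7a7 stood at 25.6% to 44.3% of its enterocyte-like level, the heavy chain Slc3a2 at 45.9% to 53.9% and Slc7a8 at 65.5% to 69.8%. Among the enterocyte markers, the brush border genes Vil1 (median 53.4%) and Anpep (80.3%) were as little restricted. Slc7a8 was thus measured at 102 and 140 CPM in ileal and 154 and 153 CPM in jejunal stem/progenitor-like cells.

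Slc1a1 had the reverse order. It was at 28.1 and 37.1 CPM in ileal stem/progenitor-like cells and at 20.1 and 19.1 CPM in jejunal ones (93, 115, 69 and 71 UMIs), above the enterocyte-like level in all 4 libraries. The ratio of stem/progenitor-like to enterocyte-like level was 137% and 199% in the ileum against 619% and 581% in the jejunum. At 2000 UMIs per cell, stem/progenitor-like cells gave 7.03 and 7.64 Slc1a1 UMIs per 100 cells in the ileum against 4.31 and 4.71 in the jejunum, above the enterocyte-like value of the same library in all 4.

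**Figure D2:**
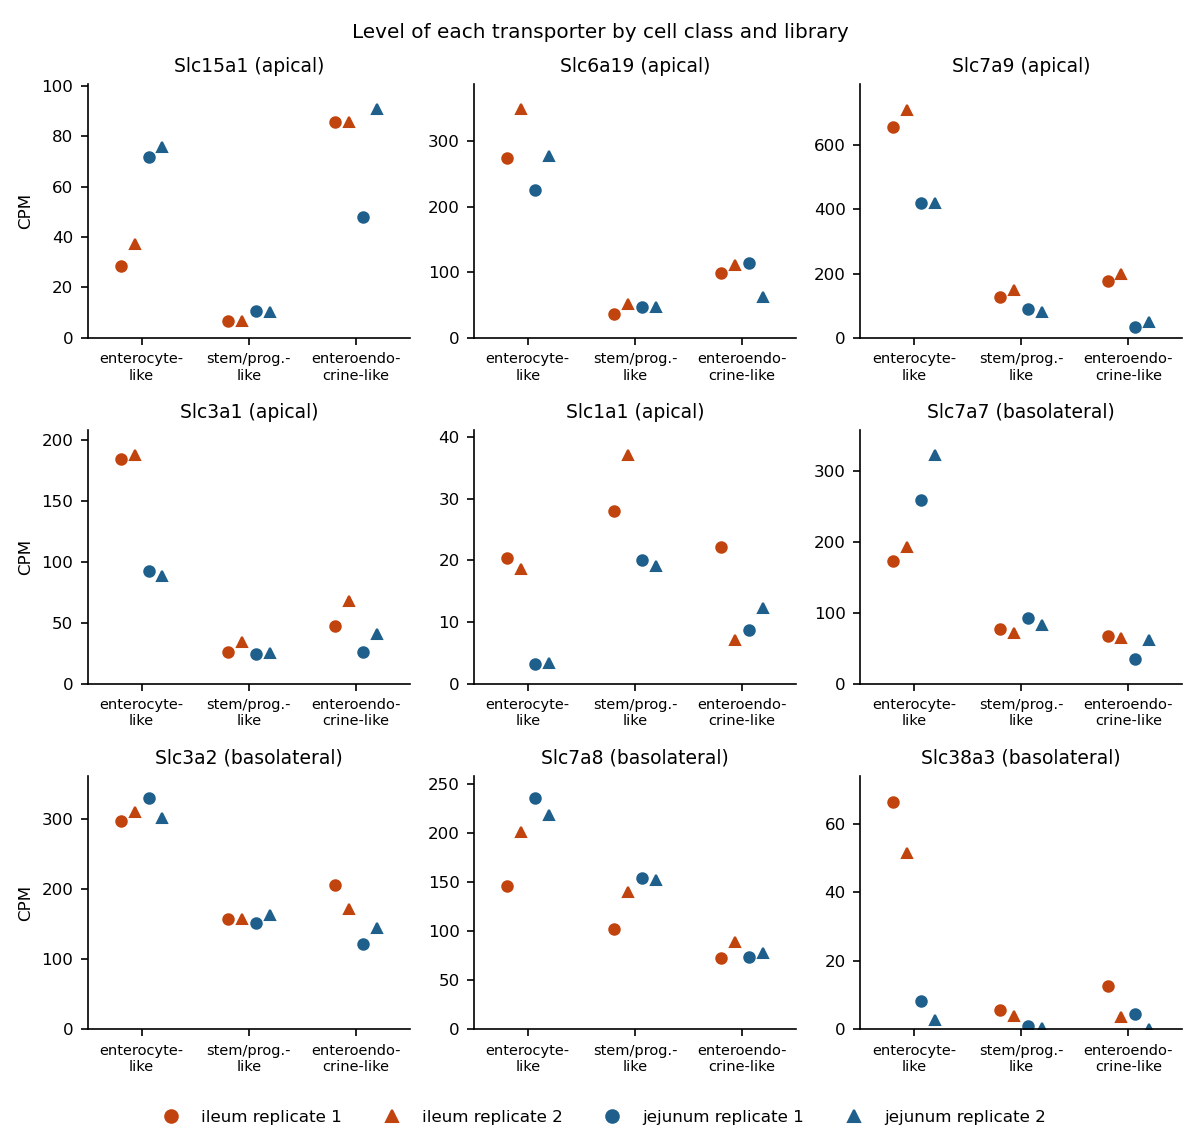
CPM of each transporter in enterocyte-like, stem/progenitor-like and enteroendocrine-like cells, with 1 point per library, ileum in red, jejunum in blue, replicate 1 as circles and replicate 2 as triangles. Axes start at 0 and differ between panels. Most genes are highest in enterocyte-like cells, Slc1a1 is highest in stem/progenitor-like cells in every library, and Slc15a1 in enteroendocrine-like cells reaches 85.7 and 85.5 CPM in the ileum.

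Of the 9, none was called between the regions in stem/progenitor-like cells, where 2.45% of all genes tested were called by edgeR. An unadjusted p under 0.05 by edgeR was reached by 4 of them. The 2.45% is for adjusted p and gives no background for that count. DESeq2 called 1, Slc7a9. Slc7a9 was at 126 and 149 CPM in the ileum against 88.3 and 78.9 CPM in the jejunum (log2 fold change 0.68 ± 0.15 SE, adjusted p = 0.0601 by edgeR, 0.00969 with the replicate block). It was called without ileum replicate 1 or jejunum replicate 1 (adjusted p of 0.0382 and 0.0305). Slc1a1 had a log2 fold change of 0.69 ± 0.21 SE (adjusted p = 0.154), and Slc3a1, at 26 and 34.2 CPM against 24.1 and 25.3 CPM, had 0.24 ± 0.21 SE (adjusted p = 0.652).

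Slc38a3 was near the limit of detection in stem/progenitor-like cells, with 19 and 12 UMIs in the ileum against 3 and 2 in the jejunum. The ratio of the pooled CPM was 6.92, with an exact 95% interval of 2.67 to 22.8 that covers counting error only. Its adjusted p was 0.0669 by edgeR and 0.0317 with the replicate block, which called 7.36% of all genes tested in this class.

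An interaction term then asked whether the log2 fold change of a gene between ileum and jejunum was of another size in enterocyte-like than in stem/progenitor-like cells, with both sums of each library kept as a block. Slc1a1 and Slc3a1 were called, 2 of 9, against 9.08% of all genes tested. The log2 fold change of Slc1a1 was larger in enterocyte-like cells by 1.78 ± 0.26 SE (adjusted p = 0.00026 by edgeR), and that of Slc3a1 by 0.69 ± 0.20 SE (adjusted p = 0.0325). For Slc1a1 the classes lay further apart in the jejunum than in the ileum, as the shares above show. Without the library block neither was called (adjusted p of 0.0737 and 0.256). Slc3a1 also lost the call at a mitochondrial share under 10% (adjusted p = 0.135), with enterocyte-like sums of as many cells as the stem/progenitor-like sums (adjusted p = 0.0513), and without ileum replicate 1, jejunum replicate 1 or jejunum replicate 2 (adjusted p of 0.261, 0.0723 and 0.115). Slc7a7 was called without ileum replicate 2 or jejunum replicate 1 (adjusted p of 0.0397 and 0.00463) and not otherwise (0.0993 with all libraries).

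Exons of both genes overlap genes on the opposite strand in the GENCODE annotation of GRCm38, Slc3a1 with Prepl over 601 bases and Slc1a1 with 4430402I18Rik over 2631 bases, and Slc7a7 overlaps Oxa1l over 232 bases. Whether the counting used strand is not given in the sources used here. In enterocyte-like cells, Prepl was at 11.0 and 9.53 CPM in the ileum against 9.53 and 8.40 CPM in the jejunum. Oxa1l was at 33.7 and 35.6 against 36.6 and 35.3 CPM. In this class the regional ratios of both lay closer to 1 than that of the overlapping transporter. In stem/progenitor-like cells, Prepl was at 19 and 14.5 CPM in the ileum against 17.1 and 17.8 CPM in the jejunum. Oxa1l was at 63.1 and 74.6 against 72.4 and 71.3 CPM there. Both partners thus lay nearer to the level of the overlapping transporter than in enterocyte-like cells. The part of Prepl and Oxa1l in the Slc3a1 and Slc7a7 values of either class was not tested. 4430402I18Rik was not matched by this symbol, and its part in the Slc1a1 values was not tested.

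In the 258 enteroendocrine-like cells the peptide transporter stood out. Slc15a1 was at 85.7 and 85.5 CPM in the ileum against 48.1 and 90.6 CPM in the jejunum, from 27, 24, 11 and 22 UMIs. In the ileum this was 303% and 230% of the enterocyte-like level, and in the jejunum 67.1% and 119%. The regions, which did not overlap in enterocyte-like cells, overlapped here. Slc7a9 was at 178 and 199 CPM in ileal and 35.0 and 49.4 CPM in jejunal enteroendocrine-like cells. This was 27.1% and 28.1% of the enterocyte-like level in the ileum against 8.31% and 11.8% in the jejunum. The middle enterocyte marker of the same libraries was higher, at 39.7%, 30.8%, 14.3% and 14.5%. RNA carried over between cells and low expression cannot be told apart at such levels.

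In the 53 immune-like cells the heavy chain Slc3a2, which also serves as a surface antigen of activated lymphocytes, was at 226 and 335 CPM in the ileum against 364 and 496 CPM in the jejunum (15, 15, 48 and 43 UMIs), 75.9% to 164% of the enterocyte-like level. Its partner Slc7a8 had 1 to 6 UMIs in each library, and Slc38a3 had 1 UMI in all 4 libraries together. The 20 goblet-like cells were too few to describe.

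The light and heavy chains of 1 transporter need not have the same level of RNA. Counts from the 3′ ends of transcripts do not give a stoichiometry, so ratios are compared only between libraries and classes. In enterocyte-like cells, the ratio of Slc7a9 to Slc3a1 UMIs was 3.56 and 3.77 in the ileum against 4.55 and 4.76 in the jejunum. The ileal libraries thus had more Slc3a1 relative to Slc7a9. In stem/progenitor-like cells the order was opposite, at 4.84 and 4.37 in the ileum against 3.66 and 3.12 in the jejunum.

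On the basolateral side, the ratio of Slc7a7 to Slc3a2 in enterocyte-like cells was 0.582 and 0.626 in the ileum against 0.786 and 1.07 in the jejunum. The ratio of Slc7a8 to Slc3a2 was 0.493 and 0.650 against 0.713 and 0.726. Both light chains were thus lower relative to their heavy chain in both ileal libraries, without overlap, and ileum replicate 2 lay nearer to the jejunum for Slc7a8.

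**Figure D3:**
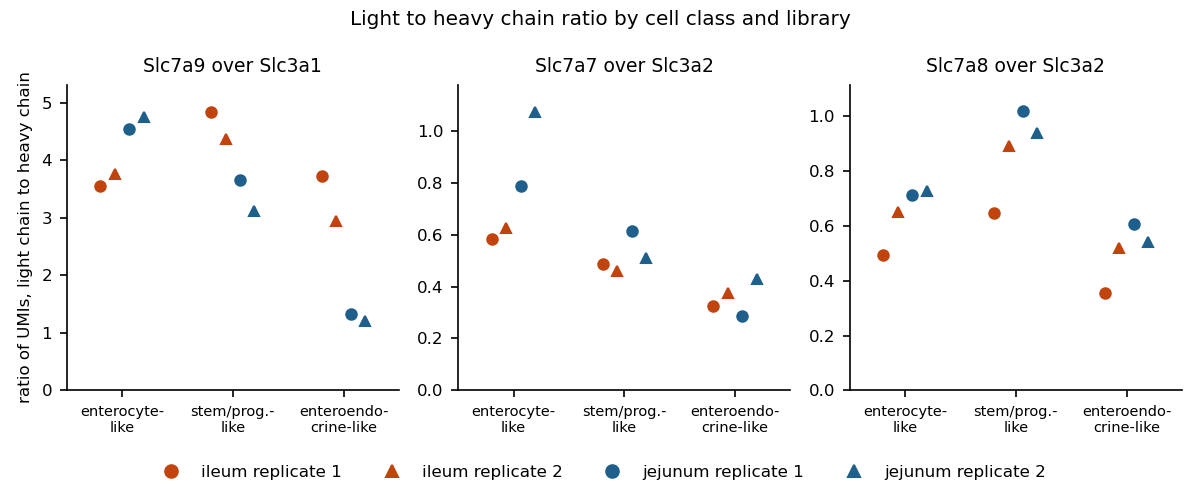
Ratio of light chain to heavy chain UMIs for each pair, by cell class and library (ileum red, jejunum blue, circles replicate 1, triangles replicate 2), on axes that start at 0. The Slc7a9 to Slc3a1 ratio is lower in the ileum in enterocyte-like cells (3.56 and 3.77 against 4.55 and 4.76) and higher in the ileum in stem/progenitor-like cells.

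Slc7a9 and Slc3a1 also varied together among clusters. Over 76 sums of 1 library and 1 cluster of at least 50 cells, their log2(CPM + 5) values had a Pearson r of 0.92, which is across sums that share libraries and depth and is given without a test. This was not particular to the pair, since Slc6a19 had an r of 0.85 with Slc7a9 and 0.84 with Slc3a1. The 250 bases before the RefSeq transcription starts of Slc7a9 and Slc3a1 (GRCm38.p6, both on the plus strand) are shown. They are Slc7a9 at chr7:35448842-35449091, the first of 2 starts in the table, and Slc3a1 at chr17:85028097-85028346. Letters of any of 5 motifs, searched on both strands, are in capitals.
Slc7a9: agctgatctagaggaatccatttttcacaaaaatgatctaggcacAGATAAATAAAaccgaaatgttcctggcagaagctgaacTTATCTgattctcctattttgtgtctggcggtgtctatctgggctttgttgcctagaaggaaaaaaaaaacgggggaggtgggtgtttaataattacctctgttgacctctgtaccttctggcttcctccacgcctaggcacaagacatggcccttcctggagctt
Slc3a1: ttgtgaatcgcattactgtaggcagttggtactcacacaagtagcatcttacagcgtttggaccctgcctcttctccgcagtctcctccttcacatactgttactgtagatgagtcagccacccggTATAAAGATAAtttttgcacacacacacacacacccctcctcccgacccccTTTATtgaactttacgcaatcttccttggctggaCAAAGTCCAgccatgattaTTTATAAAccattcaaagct

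The motifs were a GATA site (AGATAA), a CDX site (TTTAT), an HNF4 site (CAAAGTCCA), an HNF1 half-site (GTTAAT) and a TATA box (TATAAA), all named for regulators or elements known from intestinal genes. The GATA letters were in both windows, 205 and 166 bases before the start of Slc7a9 (first base of each match) and 119 bases before that of Slc3a1, and in 9.99% of all 32851 windows of this length. The CDX letters were in both and in 37.3% of all windows, and their matches overlapped GATA or TATA letters in places. The HNF4 letters were 39 bases before the start of Slc3a1 alone and in 0.384% of all windows. The TATA letters were found in Slc3a1 and 12.4% of windows, and the HNF1 letters in neither and 6.43%. Of the 9 genes, 8 had a window in the table, and none was listed for Slc38a3. A match is a description of letters and does not show that a factor was bound.

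The genes whose pattern over the same 76 sums was most like that of each transporter, among 7029 genes with a mean over 20 CPM, were Slc44a4 for Slc7a9 (r = 0.97) and for Slc3a1 (r = 0.94), Slc6a8, a creatine transporter, for Slc6a19 (r = 0.92), and Tmem263 for Slc15a1 (r = 0.87). Slc1a1 was most like Fpgs (r = 0.92), and Slc7a7 most like Acot4 (r = 0.94) and Slc5a1, the apical sodium-glucose transporter (r = 0.91). Slc38a3 was most like Fcgbp (r = 0.94), Slc3a2 most like Paf1 (r = 0.88) and Slc7a8 most like Surf4 (r = 0.84). Slc15a1 and Slc1a1 ran in opposite directions (r = -0.82).

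Levels were also compared among the 15 enterocyte-like clusters with at least 50 cells in every library. Slc15a1, Slc6a19 and Slc7a9 were lowest in all 4 libraries in a cluster led by Celf2 and Rmrp, whose cells had a median of 2359 UMIs. Slc7a9 was at 199, 241, 178 and 165 CPM there (ileum 1 and 2, jejunum 1 and 2). Slc1a1 was at 41.1, 22.5, 17.4 and 20.4 CPM in the same cluster, its highest level in 3 of the 4 libraries but not in ileum replicate 2. In ileum replicate 1 the cluster led by Aldh1a1 and Fabp6 stood close, at 38.6 CPM. The sums of the Celf2 and Rmrp cluster held 291819, 311495, 460638 and 684610 UMIs over all genes. Its Slc1a1 and Slc15a1 levels thus rest on few UMIs, and their ranks are uncertain. When clusters were formed without integration, the cluster led by Celf2 and Ccnb1ip1 was named stem/progenitor-like, so the class of these cells depends on the clustering. Slc38a3 was at 146, 115, 33.0 and 8.87 CPM in a cluster led by 3300005D01Rik and Enpp3, its highest level in 3 of the 4 libraries but not in jejunum replicate 2, and the ileum stayed above the jejunum within it. Clusters were formed on these same cells, so these values are given without a test.

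The position of a cell along the villus was approximated by a landmark score, the mean level of 6 villus tip genes minus that of 12 ribosomal protein genes that are higher in the lower villus. Enterocyte-like cells of each library were cut into 3 ranges of equal cell number. These are ranges of a score, not cell types, and 6.91% to 7.87% of the cells of a library lay within 0.05 score SD of a cut. The high range was also shallower, with a median of 3322 to 8734 UMIs per cell against 7488 to 15359 in the low range, and had a mean mitochondrial share of 5.37% to 11.4% against 3.90% to 9.74%, and the part of depth in the differences was not tested.

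Slc38a3 increased most towards the high range. Its CPM in the low, middle and high range was 25.5, 74.1 and 107 in ileum replicate 1 and 22.1, 64.3 and 80.7 in ileum replicate 2. In jejunum replicate 1 it was 3.84, 10.3 and 15.1 and in jejunum replicate 2 1.61, 2.44 and 5.21. The log2 ratio of high to low, taken after adding 1 CPM to both levels, was 1.71 ± 0.33 (SD, n = 4 libraries) and positive in all 4. All log2 ratios between ranges were taken in this way. The addition makes ratios of low levels smaller in size than the CPM alone give, here most for Slc38a3 and Slc1a1 in the jejunum.

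Slc15a1 (0.52 ± 0.42) and Slc6a19 (0.29 ± 0.24) were also higher in the high range in all 4 libraries. For both, the log2 ratios were larger in the ileal than in the jejunal libraries, a difference that was not tested, with log2 ratios for Slc15a1 of 0.95 and 0.81 in the ileum against 0.10 and 0.22 in the jejunum. Slc1a1 fell, from 29.9 to 12.5 CPM and from 27.7 to 11.3 CPM in the ileum and from 3.96 to 2.67 CPM and 4.61 to 1.53 CPM in the jejunum (log2 ratio -1.0 ± 0.38, SD, n = 4).

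Slc7a7 (-0.44 ± 0.069), Slc3a2 (-0.37 ± 0.16), Slc3a1 (-0.31 ± 0.26) and Slc7a9 (-0.23 ± 0.11) were lower in the high range in all 4 libraries, while Slc7a8 (-0.077 ± 0.067) was lower in 3 of 4. In all, 8 of 9 had the same sign in every library, beside 66.3% of 8378 genes. With 5 ranges per library Slc3a1 no longer did, at 0.000278 in ileum replicate 1. With tip genes alone Slc7a7 and Slc3a2 no longer did, and the share of all genes was not taken for these settings. When the score used the tip genes alone, Slc7a9, Slc3a1, Slc7a7, Slc3a2 and Slc7a8 turned to positive mean log2 ratios of 0.14, 0.25, 0.032, 0.11 and 0.059. Their direction along the villus thus depends on the score used. The order of depth turned too in the ileum. With tip genes alone the median was 6356 and 8354 UMIs per cell in the low range of ileum replicates 1 and 2. It was 15176 and 11843 in their high range, and the part of depth in the turn was not tested. Slc38a3 (0.42), Slc15a1 (0.38) and Slc6a19 (0.25) stayed positive and Slc1a1 (-0.25) negative in all 4 libraries. With tip genes alone the ileal log2 ratios no longer lay above the jejunal ones, at 0.61 and 0.28 against 0.29 and 0.35 for Slc15a1 and at 0.26 and 0.11 against 0.31 and 0.33 for Slc6a19.

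**Figure D4:**
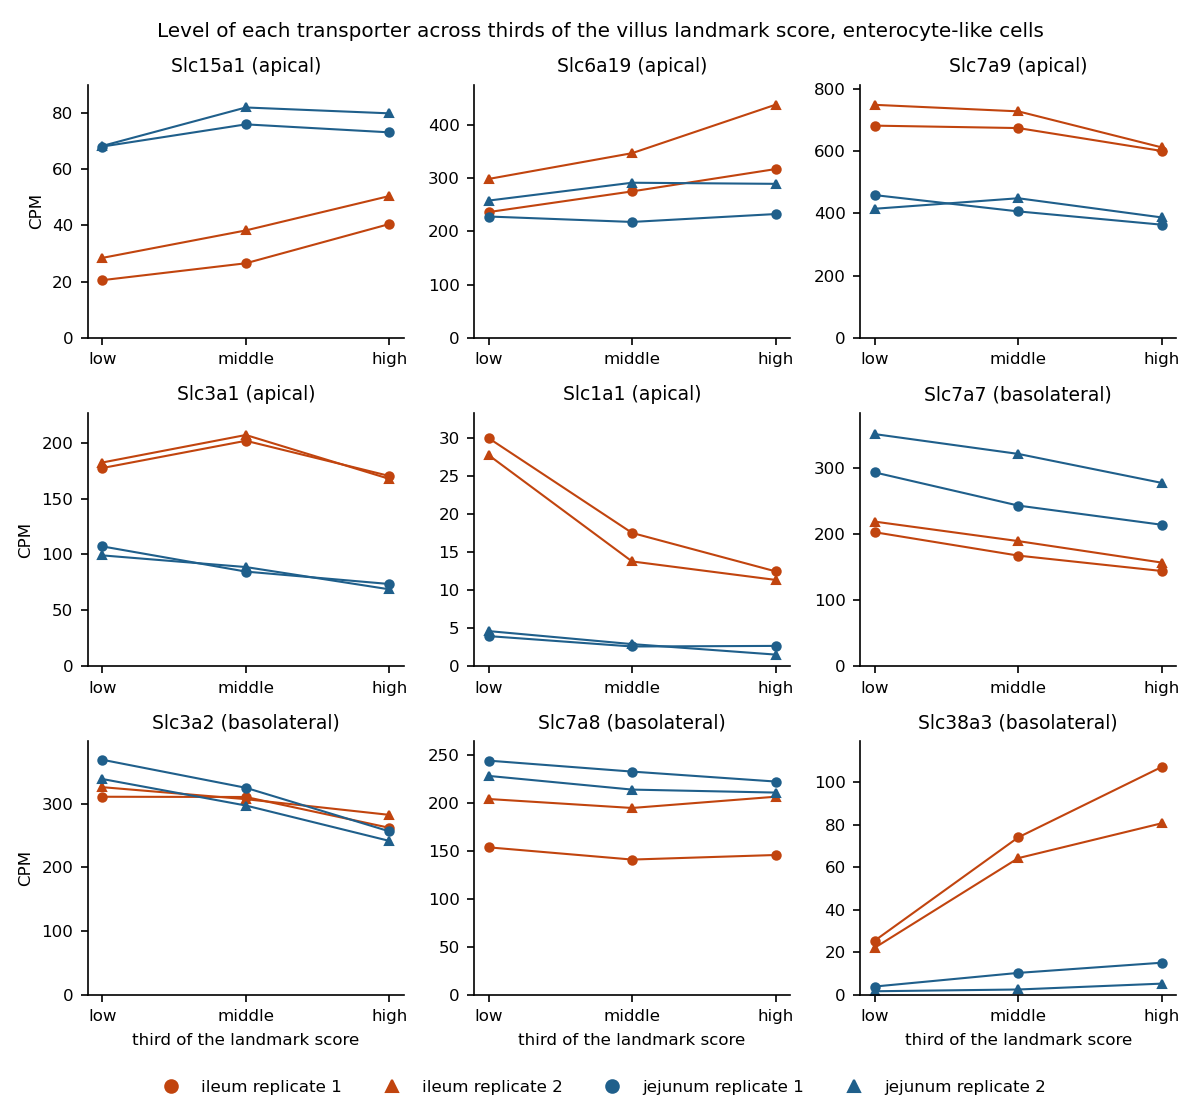
CPM of each transporter in the low, middle and high range of the villus landmark score in enterocyte-like cells, with 1 line per library (ileum red, jejunum blue, circles replicate 1, triangles replicate 2), on axes that start at 0. Slc38a3 increases from 25.5 and 22.1 to 107 and 80.7 CPM in the ileum and Slc1a1 declines. The regions do not overlap for Slc15a1, Slc7a9, Slc3a1, Slc1a1, Slc7a7, Slc7a8 and Slc38a3 in each range. No share of all genes was taken for these ranges, and at equal depth 70.7% of genes did not overlap, so this is not particular to the transporters.

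To place the 9 in their pathway, 69 other genes were listed, of which 68 were in the feature lists and 63 were tested. Of these, 10 were called between the regions in enterocyte-like cells (15.9%), 5 in each direction, beside the 6.98% of all genes tested (4.05% favouring the ileum and 2.93% the jejunum). Of 28 other plasma membrane transporters tested, 3 favoured the ileum and 1 the jejunum, and the median log2 fold change was -0.13. Slc16a10 (TAT1), the basolateral carrier of aromatic amino acids, was at 214 and 202 CPM in the ileum against 324 and 348 CPM in the jejunum (log2 fold change -0.80 ± 0.14 SE, adjusted p = 0.0344 by edgeR).

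Slc36a4 (8.34 and 8.23 against 2.00 and 1.40 CPM) and Slc7a15 (14.3 and 9.15 against 3.31 and 2.01 CPM) were higher in the ileum, with log2 fold changes of 2.17 ± 0.23 and 2.02 ± 0.31 SE. Slc6a14, a broad carrier of neutral and cationic amino acids, was at 29.8 and 3.89 CPM in the ileum against 0.509 and 0.213 CPM in the jejunum (log2 fold change 5.36 ± 1.09 SE, adjusted p = 0.0490), and the ileal libraries differed from each other several fold. The uncalled genes with the highest mean CPM were the taurine transporter Slc6a6 (582 and 593 against 437 and 367 CPM) and the glutamine carrier Slc38a1 (421 and 432 against 378 and 349 CPM).

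Of 8 lysosomal exporters tested, Mfsd1 was called, at 212 and 208 CPM in the ileum and 93.2 and 87.3 CPM in the jejunum (log2 fold change 1.11 ± 0.13 SE, adjusted p = 0.0191). The cystine exporter Ctns was not, at 260 and 293 against 254 and 222 CPM, and neither was Mfsd12, at 159 and 158 against 111 and 111 CPM. The list had a median log2 fold change of 0.28. Of 7 partners and ion transporters that set up gradients, the sodium-proton exchanger Slc9a3, which sustains the proton gradient that Slc15a1 uses, was at 13.5 and 10.3 CPM in the ileum against 67.5 and 102 CPM in the jejunum (log2 fold change -2.96 ± 0.27 SE, adjusted p = 0.0156).

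Of 11 brush border peptidases, which release the substrates of these transporters, 3 were higher in the jejunum and 1 in the ileum. Mme was at 8.33 and 6.61 CPM in the ileum against 61.4 and 152 CPM in the jejunum (log2 fold change -3.97 ± 0.49 SE, adjusted p = 0.0217). Ace (490 and 506 against 1014 and 930 CPM) and Ggt1 (9.48 and 10.8 against 21.2 and 28.4 CPM) had log2 fold changes of -1.07 ± 0.14 and -1.40 ± 0.22 SE. Mep1a went the other way, at 852 and 824 against 472 and 453 CPM (log2 fold change 0.75 ± 0.13 SE, adjusted p = 0.0372).

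The aminopeptidases Anpep (284 and 649 against 846 and 1114 CPM, adjusted p = 0.150) and Enpep (650 and 683 against 443 and 321 CPM, adjusted p = 0.0791) were not called. None of 9 cytosolic peptidases was called by edgeR. An unadjusted p under 0.05, for which no share of all genes is given, was reached by 1 of them. The cytosolic peptidases with the highest mean CPM were Xpnpep1 (294 and 457 against 474 and 446 CPM) and Cndp2 (498 and 535 against 354 and 245 CPM).

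**Figure D5:**
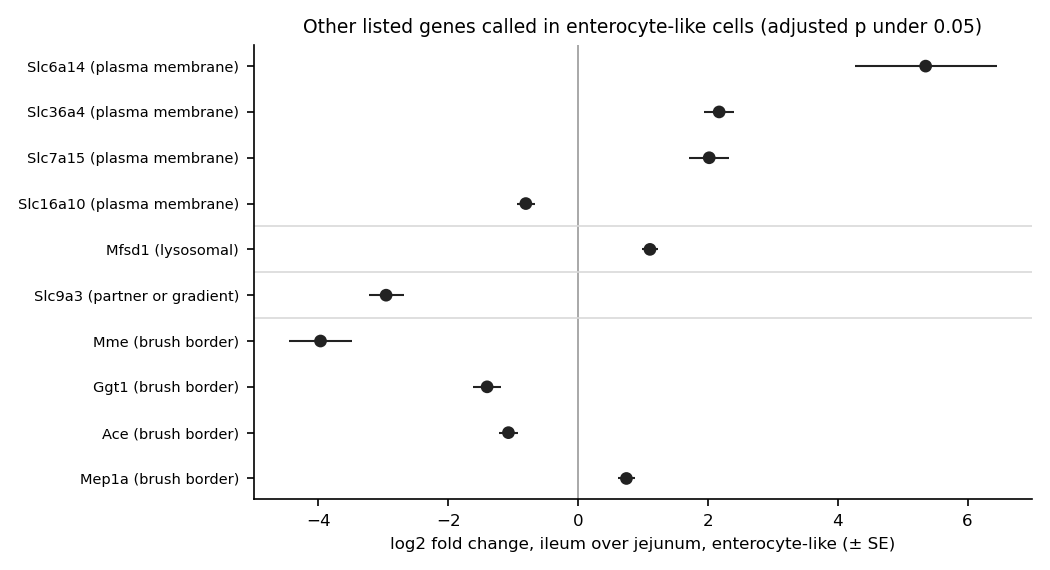
Log2 fold change, ileum over jejunum, in enterocyte-like cells for the 10 other listed genes with an adjusted p under 0.05, with SE bars from edgeR. Slc9a3 (-2.96) and Mme (-3.97) lie to the left, and Slc6a14 (5.36), Slc36a4 (2.17), Slc7a15 (2.02) and Mfsd1 (1.11) to the right.

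In stem/progenitor-like cells, where no transporter of the 9 was called, 5 of the 50 other listed genes tested were (10.0%, beside 2.45% of all genes tested), and they are named here after their values were seen. Mep1a (268 and 290 against 129 and 104 CPM), Enpep (140 and 162 against 68.6 and 36.1 CPM) and Cndp2 (122 and 117 against 59.0 and 51.4 CPM) were higher in the ileum, and Ace (45.6 and 48.4 against 80.2 and 71.6 CPM) and Anpep (345 and 494 against 715 and 749 CPM) in the jejunum, with adjusted p of 0.00454 to 0.0494 by edgeR. All 5 had the same direction in enterocyte-like cells. The part of RNA carried over from enterocyte-like cells in these values was not tested.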

How the data were processed

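The authors released epithelium with 30 mM EDTA and dispase, captured cells by templated emulsification (PIPseq) and counted 3′ libraries with PIPseeker at sensitivity 3. The deposited matrices hold raw UMI counts per gene and called cell. The submitters' processing notes name the build GRCm39, and the annotation and the use of strand are not given in the sources used here. Following the authors' limits, cells were kept with more than 1000 and fewer than 6000 genes (genes seen in at least 3 cells of a library) and under 20% mitochondrial counts. The ileal libraries totalled 131400239 and 125067265 UMIs and the jejunal ones 64391480 and 57951874.

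Scrublet (scanpy 1.11.5) called 1, 1, 1 and 3 doublets, too few to have worked, so no cell was removed and leaving out the 6% highest scores was an alternative. Seurat 5.3.0 took 2000 variable genes (1 of them among the 9), integrated the libraries by CCA and, from 30 components at resolution 1, gave 23 clusters. Classes needed 3 markers (seen in 10% of cells and 1 log2 unit above other cells, or, for enterocytes, in 50% of cells with a mean log2 fold above -1), limits that were chosen once values were known. The 9 genes, the lists and the marker lists were chosen with earlier results of these data known.

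For each class, the UMI counts of a library's cells were added up, filtered by filterByExpr, scaled by TMM and tested by the edgeR 4.0.16 quasi-likelihood test (R 4.3.3) with region as the only term. SE is the absolute log2 fold change over the root of F. Besides the mouse number, the levels of Xist and Eif2s3y given above separated the 2 replicates of each region. The p-values rest on 2 libraries per region. Both regions came from the same mouse, so replicate numbers pair the libraries (series design), and deviations of same-numbered libraries correlated at 0.280 over 19770 genes in enterocyte-like and 0.223 over 12835 genes in stem/progenitor-like cells. The block on mouse was an alternative, as was DESeq2 1.42.0. On simulated counts for the enterocyte-like comparison (19414 genes), 197 of 200 genes changed by 2 log2 units were recovered with 6 false calls. The simulation gave all genes the same dispersion, had no mouse effect and changed only genes above a count limit. Most of the transporters had smaller fold changes, so it checks the code and does not give the recovery or false calls of the real data.

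Named genes of the other lists are those called in enterocyte-like cells, at most 6 per list by size, and the 2 uncalled genes of highest mean CPM per list. Likeness names come from the 3 highest correlations per transporter. Some values that these rules name are not reported here. Of 69 other listed genes, Slc66a4 was not matched in the feature lists and Nherf1 was found as Slc9a3r1. Leaving out a library leaves 1 library in a region, which is then assumed to vary like the other region. Intervals cover counting error only, at 95%. Sequences came from RefSeq tables of GRCm38.p6, and no protein sequence was used. No authors' comparison was used.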

Additional observations from a re-analysis of the deposited data

Results flagged for a closer look

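Slc1a1 was picked out because its regional difference itself differed between the classes. Its log2 fold change of ileum over jejunum was larger by 1.78 ± 0.26 SE in enterocyte-like than in stem/progenitor-like cells (interaction, adjusted p = 0.00026 by edgeR), with both mice in this direction. Slc3a1 was picked out in the same way, with a difference of 0.69 ± 0.20 SE (adjusted p = 0.0325 by edgeR), also in both mice.

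The ratio of Slc7a9 to Slc3a1 moved in opposite directions in the classes. In enterocyte-like cells the log2 ratio of ileum to jejunum was -0.35 in mouse 1 and -0.34 in mouse 2 (mean -0.34), and in stem/progenitor-like cells it was 0.40 and 0.49 (mean 0.44). This difference was not tested. Groups of 2 libraries are too small for a search for single libraries far from the rest.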

How the results depend on the processing

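In enterocyte-like cells the 4 called transporters became 2 with no filter on low counts, and 1 to 5 when a library was left out, the fewest without ileum replicate 1. The replicate block and DESeq2 each called 6, library totals alone 5, and RLE factors, thinned sums, a mitochondrial share under 10%, doublet removal, resolution 0.5, clusters without the listed genes and clusters without integration 4 each. In stem/progenitor-like cells the count of 0 became 2 with no filter, 2 with the replicate block, 1 with DESeq2, 1 with library totals alone and 1 with clusters formed without the listed genes, and was 0 to 1 when a library was left out. Over all kept cells 5 became 1 with no filter and 6 with the replicate block, and 2 to 4 when a library was left out. The interaction count of 2 became 0 with no replicate block, 1 at a mitochondrial share under 10%, 1 with enterocyte-like sums of equal cell number, and 1 to 3 when a library was left out. The replicate block changed no call beyond those named in the report. Over all genes, the enterocyte-like calls (1379) became 3013 with the replicate block, 3109 with DESeq2, 503 with no filter and 90 to 1953 when a library was left out. The 315 of stem/progenitor-like cells became 945 with the block, 889 with no filter and 242 to 658 when a library was left out, the 1526 over all kept cells 2710, 3171 with DESeq2, 223 and 451 to 1772, and the 1742 interactions 10 with no replicate block and 752 to 2031 when a library was left out. The causes were not tested.

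Of single transporters, those whose direction turned were all uncalled. Slc6a19 ranged from -0.044 to 0.41 in enterocyte-like cells and from -0.44 to 0.13 in stem/progenitor-like cells when a library was left out. Slc3a2 in stem/progenitor-like cells was 0.00556 with library totals alone and ranged from -0.098 to 0.00693 when a library was left out, and over all kept cells from -0.161 to 0.00592. In the interaction, Slc7a9 ranged from -0.23 to 0.05 when a library was left out, at 0.0139 without ileum replicate 2 and 0.0497 without jejunum replicate 2, and Slc15a1 was 0.065 without integration. Along the villus score, tip genes alone turned Slc7a9 (0.14), Slc3a1 (0.25), Slc7a7 (0.032), Slc3a2 (0.11) and Slc7a8 (0.059). At 1000 and 4000 UMIs per cell and under 10% mitochondrial counts, 8 of 9 did not overlap at equal depth, beside 69.8%, 68.3% and 67.2% of all genes compared. The settings added after the data were seen were library totals alone, the clusters led by noncoding RNA or Reg3g left out (4 called each), the chain ratio under a stricter mitochondrial limit and without integration, and for the interaction the left-out libraries and no integration. The enterocyte-like log2 ratio shift of Slc7a9 to Slc3a1 was -0.34 without integration and -0.32 under 10% mitochondrial counts, and the stem/progenitor-like shift of 0.44 was 0.45 and 0.31 (0.35 in mouse 1 and 0.27 in mouse 2). Depth limits Slc38a3 in jejunal stem/progenitor-like cells and all values in the small classes.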
